A study of Oryctolagus cuniculus with 12 samples.

Results

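The genes of platelet-derived growth factor (PDGF) ligands and receptors were examined in rabbit ear skin and scar. Members were the genes whose symbol in the deposited table was PDGFA, PDGFB, PDGFC, PDGFD, PDGFRA, PDGFRB or PDGFRL. Of the 7 symbols, 6 were found among 29587 genes, and no gene carried the symbol PDGFRA. All 6 members passed the filter on low values, a mean of at least 1 FPKM (fragments per kilobase of gene length, scaled to the size of the library). Beside them, 2 genes without a symbol are described, because their description in the table was PDGF receptor alpha. They lay outside the rule and were chosen after their values were seen, so they are not counted as members.

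Bulk RNA-seq was performed on 12 full-thickness samples of wild-type (WT) female rabbits aged 10 to 12 weeks, in 4 groups of 3. Normal ear skin without treatment (NS) was compared with ear hypertrophic scar left untreated (HS), raised, collagen-rich scar that forms after excision of ear skin. In the drug-loaded MNs group, each scar received 1 patch of separating microneedles, whose tips carry a 5-fluorouracil prodrug that is released by matrix metalloproteinases and reactive oxygen species. In the 5-Fu injection group, each scar received 120 μg of 5-fluorouracil (5-Fu), an inhibitor of DNA synthesis, in 0.1 mL. Both treatments were given on days 22, 29 and 36 after resection, and tissue was taken on day 43. All scars came from excisional wounds in young animals, and NS came from separate rabbits. The study used 3 rabbits per group, but the labels do not tie each sample to a rabbit, so p-values measure the spread between these samples.

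PDGFs are secreted dimers that drive the growth and migration of fibroblasts, pericytes and smooth muscle cells. PDGFA and PDGFB are cut to their active form inside the producing cell, whereas PDGFC and PDGFD are secreted as latent proteins with a CUB domain that proteases remove outside the cell. PDGF receptor alpha binds the A, B and C chains and marks fibroblasts, while PDGFRB binds the B and D chains and is found on pericytes and on fibroblasts. PDGFRL is a secreted receptor-like protein without a kinase domain.

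Reads on genes ranged from 10521472 to 14043667 over the 12 samples, and no library was a copy of another. The tissue labels were set against summed FPKM of marker genes. The 13 fibroblast genes summed to 2794 to 3993 in NS, 38658 to 50022 in HS and 19486 to 28016 in drug-loaded MNs. In 5-Fu injection they summed to 5533, 27333 and 7005 in replicates 1, 2 and 3, so replicate 2 stood apart from the other two. Most of the HS sum came from the collagen genes COL1A1, COL1A2 and COL3A1. Their means were 15711, 14066 and 8262 FPKM in HS and 772, 775 and 549 FPKM in NS. The 7 of 12 keratinocyte markers found were present in every group, with sums of 2416 to 4058 in NS, 1412 to 1998 in HS, 3848 to 9083 in drug-loaded MNs and 2974 to 5592 in 5-Fu injection. Sums of 10 chondrocyte markers ran from 522 to 5179 within HS and from 509 to 5768 within 5-Fu injection. In bulk tissue, fewer cells of a type and less RNA per cell cannot be told apart.

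PDGFD, the CUB-domain ligand of PDGFRB, was the ligand that differed most between scar and normal skin. The gene (ENSOCUG00000015312) lies on chromosome 1 from 112364735 to 112638071 on the plus strand, as the table gives it, and its genome build is not given in the sources used here. Its level was 8.23, 7.98 and 4.21 FPKM in NS and 44.3, 33.4 and 38.8 FPKM in HS. It was 19.8, 10.5 and 17.0 FPKM in drug-loaded MNs and 12.9, 13.7 and 6.65 FPKM in 5-Fu injection. Every HS sample was above every other sample. The drug-loaded MNs samples all lay above NS, and the 5-Fu injection samples overlapped NS. Each value rested on 80 to 773 reads, and DDI1, which lies inside PDGFD on the opposite strand, had at most 2 reads in any sample.

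PDGFC, the CUB-domain ligand of PDGF receptor alpha (ENSOCUG00000017242, chromosome 15, 7015699 to 7225843, plus strand), varied less. Its level was 13.6, 12.0 and 13.9 FPKM in NS, 25.0, 18.7 and 20.1 FPKM in HS, 15.2, 14.8 and 14.0 FPKM in drug-loaded MNs and 12.3, 16.8 and 14.9 FPKM in 5-Fu injection. The HS samples were again above all others, and samples of both treated groups lay between 12.3 and 16.8 FPKM. Reads per sample were 414 to 738.

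The classical ligands were low in every group. PDGFA (ENSOCUG00000005660, scaffold GL019706, 261 to 5683, minus strand) measured 11.5, 8.03 and 12.3 FPKM in NS and 7.63, 7.93 and 8.68 FPKM in HS. It measured 9.66, 9.98 and 6.22 FPKM in drug-loaded MNs and 5.91, 7.92 and 7.70 FPKM in 5-Fu injection. NS and HS overlapped, and 5-Fu injection lay below NS. With 70 to 156 reads per sample, PDGFA was the member with the fewest reads.

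PDGFB, which endothelial cells and platelets release and which recruits pericytes (ENSOCUG00000038923, chromosome 4, 84219959 to 84253229, plus strand), varied widely within groups. It measured 9.90, 14.0 and 6.75 FPKM in NS and 13.7, 7.62 and 7.94 FPKM in HS. It measured 9.37, 7.94 and 8.83 FPKM in drug-loaded MNs and 6.96, 13.4 and 18.7 FPKM in 5-Fu injection. Each group overlapped every other group.

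PDGFRB, the receptor kinase for the B and D chains (ENSOCUG00000001725, chromosome 3, 31894796 to 31914092, minus strand), was measured most deeply, with 4519 to 9549 reads. It stood at 79.8, 78.1 and 104 FPKM in NS, 184, 161 and 175 FPKM in HS, 175, 139 and 116 FPKM in drug-loaded MNs and 106, 162 and 124 FPKM in 5-Fu injection. In FPKM as deposited, all 9 scar samples, treated or not, were above the 3 NS samples. Rescaled to reads on genes, an overlap check added after the data were seen, NS replicate 3 (116) lay above drug-loaded MNs replicate 3 (111) and 5-Fu injection replicate 1 (104). Both treated groups overlapped HS.

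PDGFRL (ENSOCUG00000005211, chromosome 2, 68034567 to 68091456, minus strand) reached the highest level of any member. It stood at 73.0, 66.0 and 56.4 FPKM in NS and 170, 375 and 330 FPKM in HS. It stood at 232, 234 and 200 FPKM in drug-loaded MNs and 153, 193 and 71.6 FPKM in 5-Fu injection. HS and drug-loaded MNs lay wholly above NS, while 5-Fu injection reached down to the NS range. MTUS1 overlaps the gene on the other strand, and its level was 7.90 to 13.9 FPKM over the 12 samples. MTUS1 differed between HS and NS by a log2 fold change of −0.15 (limma, adjusted p = 0.691). Whether strand was used in counting is not given in the sources used here.

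**Figure D1:**
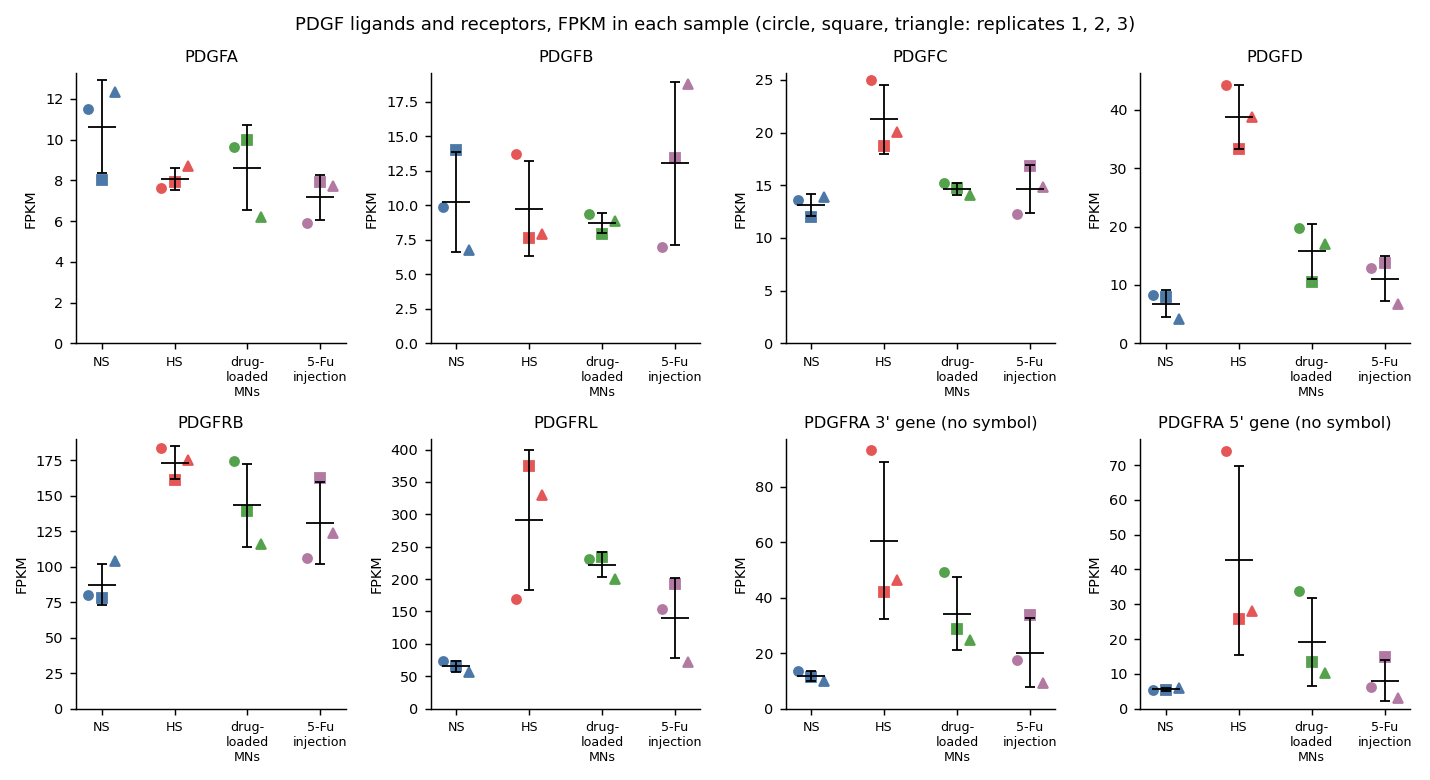
Level of each PDGF gene in each sample, in FPKM on a linear axis that starts at 0, by group, with 3 points per group and the mean and SD. PDGFD was 33.4 to 44.3 FPKM in HS and at most 19.8 FPKM elsewhere, whereas PDGFA and PDGFB overlapped between NS and HS.

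The genes described as PDGF receptor alpha lie on scaffold GL018754 on the minus strand, 3556 bases apart. The one at 205060 to 223241 (ENSOCUG00000000258), named here the 3′ gene, measured 13.7, 11.4 and 9.99 FPKM in NS, 93.2, 42.2 and 46.4 FPKM in HS, 49.3, 28.8 and 24.8 FPKM in drug-loaded MNs and 17.6, 33.6 and 9.19 FPKM in 5-Fu injection. The one at 226798 to 238382 (ENSOCUG00000037538), named here the 5′ gene, measured 5.42, 5.22 and 5.84 FPKM in NS, 74.1, 25.9 and 28.1 FPKM in HS, 33.7, 13.5 and 10.4 FPKM in drug-loaded MNs and 6.27, 14.7 and 3.12 FPKM in 5-Fu injection. HS replicate 1 was the highest sample at both, and drug-loaded MNs overlapped HS at both. Whether these are pieces of a single transcript was not tested.

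The comparison of HS with NS asks what scarring changed. PDGFD and PDGFRL were called higher in HS, where called means an adjusted p under 0.05 in limma and a log2 fold change on log2(FPKM + 1) beyond 1. These were 2 of 6 members, against 3.53% of all 13287 genes tested. PDGFD differed by 2.39 (SE 0.31, 95% interval 1.70 to 3.07, adjusted p = 0.0019, limma), a fold of 5.23 on the FPKM + 1 scale. PDGFRL differed by 2.07 (SE 0.36, adjusted p = 0.0067, limma), a fold of 4.21. No member was called lower, against 1.48% of genes, and 4 of 6 had an unadjusted p under 0.05, against 23.4%.

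PDGFRB and PDGFC were higher in every HS sample but stayed under the fold threshold. PDGFRB differed by 0.99 (SE 0.20, adjusted p = 0.0133, limma) and PDGFC by 0.65 (SE 0.15, adjusted p = 0.0259, limma). Hence 4 of 6 members had HS wholly above NS, a pattern seen in 18.0% of genes, and none had HS wholly below NS, against 15.3%. PDGFA and PDGFB gave log2 fold changes of −0.34 (adjusted p = 0.364, limma) and −0.05 (adjusted p = 0.946, limma). Their 95% intervals ran from −0.79 to 0.12 and from −0.80 to 0.70.

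The 3′ and 5′ receptor alpha genes were also called higher in HS, by 2.19 (SE 0.43, adjusted p = 0.0124, limma) and 2.58 (SE 0.54, adjusted p = 0.0169, limma). With their reads joined, an alternative added after the data were seen, the log2 fold change was 2.26 (SE 0.45, adjusted p = 0.0129, limma). The call of the 5′ gene was lost without NS replicate 1, NS replicate 2 or HS replicate 1, at adjusted p of 0.0601, 0.0501 and 0.0644 (limma). Of the 13 fibroblast markers, whose sums did not overlap between HS and NS, 9 were called higher, and their median log2 fold change was 1.62. None of the 10 mural or 9 endothelial markers found was called. The part of fibroblast content in the differences of PDGFD, PDGFRL, PDGFRB and receptor alpha was not tested.

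Scaling matters for the members with small differences. With FPKM rescaled to the reads on genes, the median of all genes in HS versus NS moved to −0.33. Over all genes, 311 were then called higher and 749 lower, against 469 and 196 without rescaling. PDGFD and PDGFRL were still called, at 2.05 and 1.71. PDGFC then gave 0.31 (adjusted p = 0.174, limma), PDGFRB 0.63 (adjusted p = 0.0459, limma) and PDGFA −0.67 (adjusted p = 0.0467, limma), with every HS sample of PDGFA then below NS. PDGFRB passed the fold threshold without NS replicate 3, at 1.12 (adjusted p = 0.0153, limma), and without HS replicate 2, at 1.04 (adjusted p = 0.0363, limma). Its adjusted p rose to 0.0601 without NS replicate 1 and to 0.0516 without HS replicate 1 (limma).

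**Figure D2:**
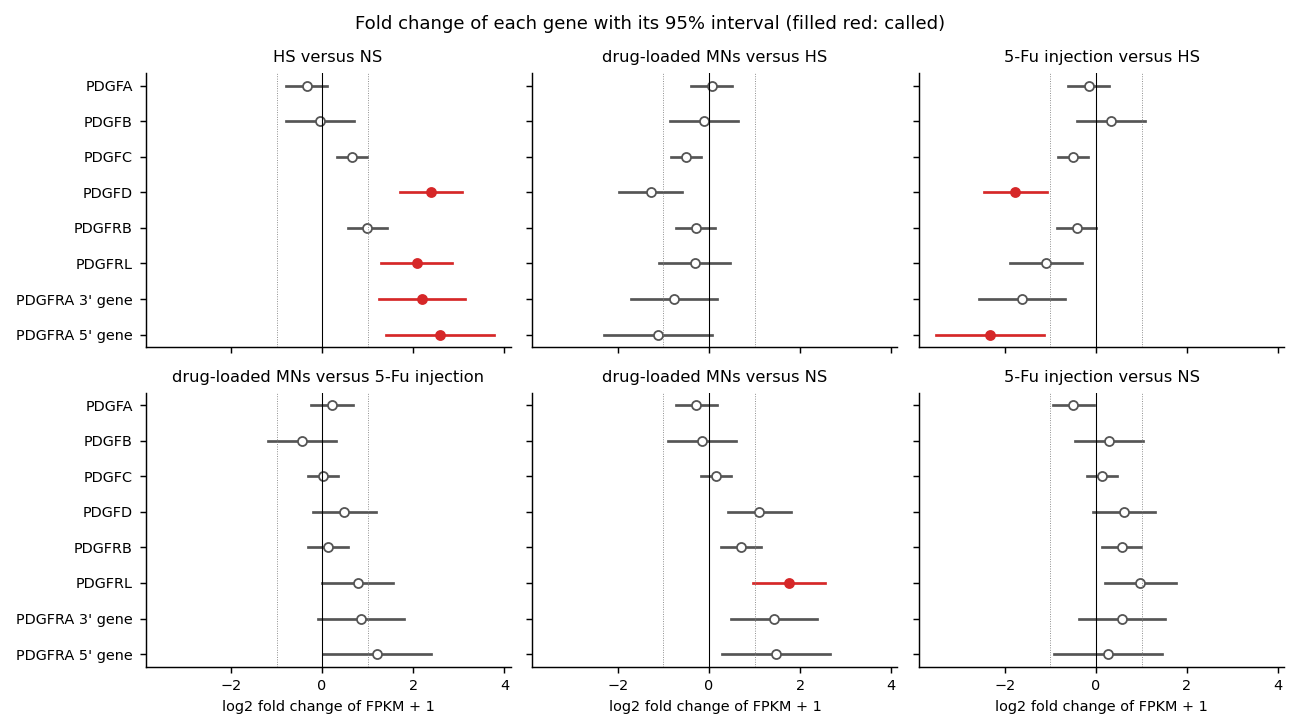
Log2 fold change on log2(FPKM + 1) of each PDGF gene in each comparison, with 95% intervals from limma. PDGFD lay at 2.39 in HS versus NS, at −1.28 in drug-loaded MNs versus HS and at −1.77 in 5-Fu injection versus HS.

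In drug-loaded MNs against HS, which asks what the patches changed in scar, limma called none of the 6 members, and limma voom on recovered reads also called none. Over all genes, 0.00753% were called higher and 0.00% lower. PDGFC and PDGFD had an unadjusted p under 0.05, and so did 8.90% of genes. These 2 members also lay wholly below HS, against 10.3% of genes, and none lay wholly above, against 8.53%. PDGFD differed by −1.28 (SE 0.31, 95% interval −1.97 to −0.60, adjusted p = 0.24, limma) and PDGFC by −0.50 (SE 0.15, adjusted p = 0.349, limma). PDGFRB gave −0.29 and PDGFRL −0.32, with intervals of −0.72 to 0.14 and −1.10 to 0.47. PDGFA gave 0.06 and PDGFB −0.11. At the 3′ and 5′ receptor alpha genes the values were −0.77 and −1.12 (adjusted p = 0.633 and 0.587, limma). Fibroblast markers had a median log2 fold change of −0.50, with 3 of 13 at an unadjusted p under 0.05, and none was called. All 7 keratinocyte markers had positive log2 fold changes, with a median of 1.28 and 6 at an unadjusted p under 0.05 (8.90% of all genes), and none was called. The part of either cell type in the values of PDGFD and PDGFC was not tested.

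In 5-Fu injection against HS, PDGFD fell by 1.77 on the log2 scale (SE 0.31, adjusted p = 0.0257, limma), to 0.293 times the HS level on the FPKM + 1 scale. It was the 1 member called lower of 6, against 1.78% of genes, and no member was called higher, against 0.512%. PDGFC and PDGFD lay wholly below HS, as did 16.4% of genes, and none lay wholly above, against 13.9%. An unadjusted p under 0.05 was found for 3 members, PDGFC, PDGFD and PDGFRL, against 26.0% of genes. PDGFC gave −0.51 (adjusted p = 0.0726, limma), PDGFRL −1.10 (SE 0.36, adjusted p = 0.0907, limma) and PDGFRB −0.42 (adjusted p = 0.1996, limma). PDGFA and PDGFB gave −0.16 and 0.33.

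The 5′ receptor alpha gene fell by 2.32 on the log2 scale in 5-Fu injection (adjusted p = 0.0403, limma), and the 3′ gene gave −1.63 (adjusted p = 0.0553, limma). With their reads joined the value was −1.74 (adjusted p = 0.0519, limma), which was not called. The call of the 5′ gene was lost with no filter, with only the groups compared, with the replicate number as a block, and without each HS replicate or 5-Fu injection replicate 1 or 3, at adjusted p of 0.0561 to 0.134 (limma). Of the fibroblast markers, 5 of 13 were called lower, with a median of −1.28. All 7 keratinocyte markers had positive log2 fold changes, with a median of 0.93, and KRT15 was called higher, at 1.49 (adjusted p = 0.0426, limma). The part of either cell type in the values of PDGFD and receptor alpha was not tested. 5-Fu injection replicate 2, the sample with the highest fibroblast sum of its group, was also its highest at every member except PDGFB and at both receptor alpha genes. The PDGFD call was lost with only the groups compared and without each HS replicate or 5-Fu injection replicate 1 or 3, at adjusted p of 0.0579 to 0.0967 (limma). Without 5-Fu injection replicate 2 it held, and PDGFRL was called too (adjusted p = 0.0375, limma). The 3′ receptor alpha gene was also called in that fit, at −2.07 (adjusted p = 0.0133, limma). It was called as well with a mean of at least 5 FPKM (adjusted p = 0.0479, limma).

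Drug-loaded MNs and 5-Fu injection, compared directly, gave no called member by limma or limma voom, against 0.00% of genes, and no member had an unadjusted p under 0.05, against 15.1%. PDGFRL was wholly higher in drug-loaded MNs, by 0.78 (SE 0.36, 95% interval −0.0045 to 1.56, adjusted p = 0.332, limma), as were 8.64% of genes, and none was wholly lower, against 8.42%. PDGFD gave 0.49 (95% interval −0.20 to 1.17) and PDGFRB 0.13 (−0.30 to 0.56). The intervals of PDGFC, −0.32 to 0.34, and PDGFA, −0.24 to 0.67, were among the narrower ones, and PDGFB gave −0.44. The 3′ receptor alpha gene gave 0.85 (95% interval −0.091 to 1.80, adjusted p = 0.369, limma). The 5′ gene gave 1.20 (0.013 to 2.39, adjusted p = 0.326, limma). Neither was called, and the 2 groups overlapped at both. The treatments differed in carrier and in the form of the drug, and the contrasts of each with HS share the HS samples.

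Set against NS, drug-loaded MNs retained 1 called member, PDGFRL, which was higher by 1.76 (SE 0.36, adjusted p = 0.0469, limma). Of all genes, 0.790% were called higher and 0.0828% lower. PDGFC, PDGFD, PDGFRB and PDGFRL were wholly above NS, against 11.5% of genes, and none was wholly below, against 9.11%. Of the members, PDGFD, PDGFRB and PDGFRL had an unadjusted p under 0.05, against 12.9% of genes. PDGFD gave 1.10 (adjusted p = 0.147, limma) and PDGFRB 0.70 (adjusted p = 0.146, limma). The 3′ and 5′ receptor alpha genes gave 1.42 and 1.46 (adjusted p = 0.175 and 0.277, limma). Both lay wholly above NS, and neither was called. The PDGFRL call was lost in each of the 6 fits that left out 1 NS or drug-loaded MNs replicate, and with no filter, quantile normalization, rescaling to reads on genes, no trend or the replicate block, at adjusted p of 0.0534 to 0.162 (limma). Under that rescaling PDGFC and PDGFRB overlapped NS. Of the fibroblast markers, 4 of 13 were called higher than NS (COL1A1, COL1A2, COL3A1 and LUM), with a median of 1.15 over the list, and the Schwann cell marker SOX10 was called lower, at −1.74 (adjusted p = 0.0431, limma). Their part in the PDGFRL difference was not tested.

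5-Fu injection against NS gave no called member by limma or limma voom, against 0.00753% of genes called higher and 0.00% lower. PDGFA, PDGFRB and PDGFRL had an unadjusted p under 0.05, and so did 14.9% of genes. PDGFRB was wholly above NS, by 0.57 (adjusted p = 0.247, limma), as were 9.60% of genes, and PDGFA was wholly below, at −0.50 (adjusted p = 0.302, limma), as were 9.16%. Rescaled to reads on genes, PDGFRB overlapped NS. PDGFRL gave 0.98 (adjusted p = 0.262, limma) and PDGFD 0.62 (adjusted p = 0.373, limma). The 3′ and 5′ receptor alpha genes gave 0.57 and 0.26 (adjusted p = 0.538 and 0.851, limma) and overlapped NS. The contrasts with NS share the NS samples.

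The members also changed order. In NS the receptors led, PDGFRB at 87.4 ± 14.6 FPKM (SD, n = 3) and PDGFRL at 65.2 ± 8.35 FPKM, followed by PDGFC, PDGFA, PDGFB and PDGFD, whose neighbouring ranges overlapped. In HS, PDGFRL (292 ± 108 FPKM) and PDGFRB (173 ± 11.4 FPKM) overlapped each other, and PDGFD (38.8 ± 5.45 FPKM) came next, clear of PDGFC at 21.3 ± 3.29 FPKM. PDGFB and PDGFA were lowest and overlapped. In drug-loaded MNs PDGFD (15.8 ± 4.74 FPKM) and PDGFC (14.7 ± 0.584 FPKM) overlapped. In 5-Fu injection the 4 ligands overlapped in sequence, PDGFC, PDGFB, PDGFD and PDGFA.

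PDGFD made up a larger share of the summed ligand FPKM in HS. The 4 ligands summed to 40.8 ± 3.18 FPKM in NS, 77.9 ± 11.7 in HS, 47.8 ± 5.58 in drug-loaded MNs and 45.9 ± 7.10 in 5-Fu injection (SD, n = 3). PDGFD was 19.1, 19.0 and 11.3% of this sum in NS and 48.9, 49.3 and 51.4% in HS. It was 36.6, 24.4 and 36.8% in drug-loaded MNs and 33.8, 26.4 and 13.9% in 5-Fu injection. HS was the highest group with no overlap, while PDGFC held 26.6 to 37.4% over the 12 samples. PDGFD per PDGFC was 1.77 to 1.93 in HS and 0.303 to 0.667 in NS. These shares follow from the levels above and were not tested separately.

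**Figure D3:**
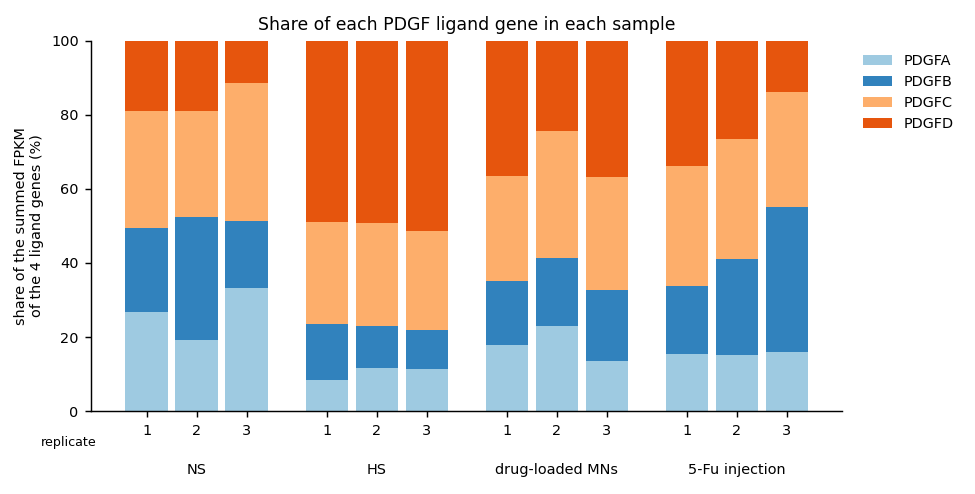
Share of each ligand in the summed FPKM of PDGFA, PDGFB, PDGFC and PDGFD, in percent, for each of the 12 samples. PDGFD filled 48.9 to 51.4% in HS and 11.3 to 19.1% in NS, with the treated samples between 13.9 and 36.8%.

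Ratios of the receptors are given as a description, with no test. PDGFRL per PDGFRB was 0.541 to 0.915 in NS, 0.925 to 2.33 in HS, 1.33 to 1.72 in drug-loaded MNs and 0.577 to 1.45 in 5-Fu injection. PDGFRB per joined receptor alpha was 6.89 to 11.7 in NS, 2.08 to 4.24 in HS, 3.86 to 5.59 in drug-loaded MNs and 5.65 to 16.3 in 5-Fu injection. For the first ratio NS and HS did not overlap but lay close, at 0.915 in NS replicate 1 and 0.925 in HS replicate 1. The second was lower in every HS sample than in NS.

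Genes whose log2(FPKM + 1) followed each member most closely over the 12 samples are given by Pearson r, as a description, since the 4 groups of 3 shape these values. For PDGFD they were ADAM9 (0.957), CMPK1 (0.956) and COL12A1 (0.955). For PDGFC they were CNN3 (0.956), COPG1 (0.951) and FBLN2 (0.946). PDGFRB was followed by TGFBI (0.963), MPZL1 (0.962) and USP36 (0.959), and PDGFRL by KERA (0.983), SVEP1 (0.973) and GLB1L (0.970). PDGFA had ABCB9 (0.962), CAMSAP2 (0.896) and CRIM1 (0.895), and PDGFB had ST6GALNAC4 (0.970), PROCR (0.929) and NUDCD1 (0.918).

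Among the members, PDGFD and PDGFRL had r = 0.821, PDGFC and PDGFRB 0.810, and PDGFC and PDGFD 0.799, over the same 12 samples. PDGFC and PDGFRL had a lower r, 0.545. PDGFA and PDGFB had r of −0.38 to 0.13 with the others. The plot against summed fibroblast markers shows the same division. Fibroblast markers were not the only list that varied with the members. PDGFD had r = 0.856 with fibroblast, −0.724 with Schwann cell and −0.856 with skeletal muscle markers. The skeletal muscle sum was mostly DES, at 41.2 to 479 FPKM, with ACTA1 next at up to 44.2 FPKM. DES is also on the mural list, with which PDGFD had r = −0.513.

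**Figure D4:**
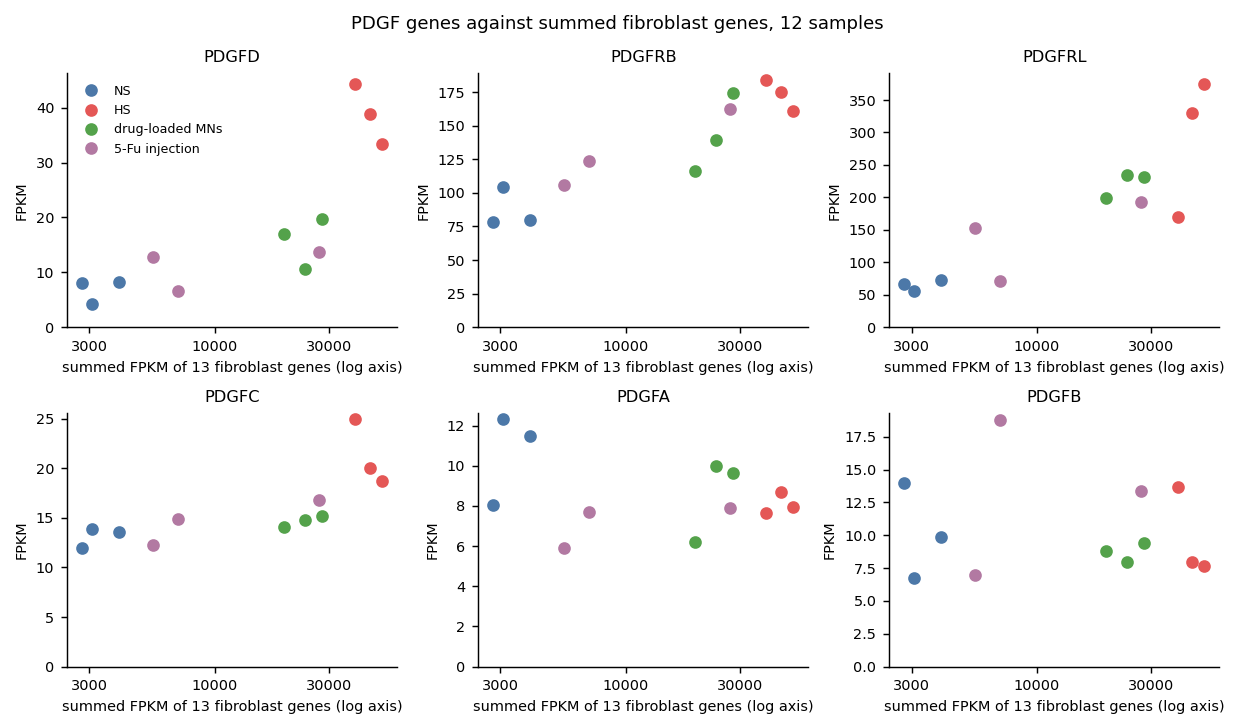
FPKM of PDGF genes in each of the 12 samples against the summed FPKM of 13 fibroblast marker genes (log axis). In HS most of this sum came from COL1A1, COL1A2 and COL3A1. HS samples, at 38658 to 50022, held the highest PDGFD, while NS samples, at 2794 to 3993, held the lowest PDGFRB.

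Other genes of the pathway were taken from lists of genes that activate or bind PDGFs, signal from the receptors or respond early. Of 8 measured genes that activate or bind PDGFs, HSPG2, the heparan sulfate proteoglycan perlecan, was called higher in HS than NS, at 213 against 94.1 FPKM (1.20, SE 0.27, adjusted p = 0.0241, limma), 1 of 8 against 3.53% of all genes. It fell in 5-Fu injection to 103 FPKM, by 1.12 on the log2 scale against HS (adjusted p = 0.0456, limma), a call that limma voom did not make, 1 of 8 against 1.78% of all genes, and no gene of the list was called in the other 4 comparisons. In HS versus NS, 3 of the 8 had an unadjusted p under 0.05, against 23.4% of all genes. Besides HSPG2 these were NRP1, a co-receptor, at 84.7 FPKM in HS and 57.8 in NS (0.54, adjusted p = 0.101, limma), and A2M, a protease inhibitor that also binds growth factors, at 7.28 and 40.8 FPKM (−2.72, adjusted p = 0.115, limma). Neither was called, and both were named after their values were seen. The median of the 8 in HS versus NS was 0.39, against −0.01 over all genes.

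Of 25 signalling genes downstream of the receptors (adaptors, kinases and phosphatases), limma and limma voom called none in any comparison. In HS versus NS, 1 of them had an unadjusted p under 0.05, against 23.4% of all genes, and the median log2 fold change was 0.02. In 5-Fu injection versus HS 7 of the 25 had an unadjusted p under 0.05, near the 26.0% of all genes. Of 12 early response genes none was called in any comparison, by limma or limma voom, and 3 had an unadjusted p under 0.05 in HS versus NS, near the 23.4% of all genes. These were HAS2, a hyaluronan synthase, at 2.07 (adjusted p = 0.0783, limma), PLAUR, the urokinase receptor, at 1.72 (adjusted p = 0.0973, limma), and SPRY2, an inhibitor of receptor kinase signalling, at −0.72 (adjusted p = 0.115, limma). They were named after their values were seen, and the median of the 12 was −0.15.

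Cells that make or answer PDGFs were checked by their markers. The 10 of 12 mural markers found summed to 610 to 2442 FPKM in NS and 651 to 962 in HS, and 9 of 12 endothelial markers to 362 to 450 and 428 to 497. NS replicate 3, at 2442, stood apart from the other NS mural sums of 722 and 610. None of the mural or endothelial markers was called between HS and NS by limma or limma voom, and 2 of 10 and 3 of 9 had an unadjusted p under 0.05, against 23.4% of all genes. The 3 of 8 platelet markers found summed to 2.54 to 7.08 FPKM over all samples, and GP1BA was at 0 in 9 of 12. Platelet sums were 2.77 to 4.76 in NS and 5.97 to 7.08 in HS, without overlap, and 18.0% of all genes had HS wholly above NS. The platelet sum was mostly ITGA2B, at 2.41 to 7.08 FPKM over the 12 samples. ITGA2B was the only platelet marker that passed the filter. In HS versus NS limma voom called it and limma did not. The 10 macrophage markers summed to 172 to 331 in NS and 265 to 440 in HS. The Schwann cell marker SOX10 was called lower in HS than NS, as were KRT5 and KRT15 of the keratinocyte markers. The part of these cell types in the values of the members was not tested.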

How the data were processed

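Per the labels, total RNA of 12 samples was made into libraries with an mRNA kit. The authors removed adapter and low-quality reads and deposited FPKM values per Ensembl gene, 1 column per sample. Aligner, counter and genome build are not given in the sources used here. FPKM times gene length fell on whole multiples of a step (tolerance 0.05), so reads were recovered. Reads on genes were 10521472 to 14043667 per sample, and the library size in the FPKM was 0.873 to 1.20 relative to them. This ratio differed by group, at 1.12 to 1.20 in NS and 0.873 to 0.932 in HS. It was 0.959 to 1.02 in drug-loaded MNs and 0.953 to 1.03 in 5-Fu injection.

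Genes with a mean of at least 1 FPKM (13287) were tested on log2(FPKM + 1) with limma 3.58.1 in R 4.3.3, in 1 fit of the 4 groups with a mean-variance trend, and p-values were adjusted by Benjamini-Hochberg within each of 6 comparisons. The pseudocount of 1 understates fold changes of low genes. A gene was called at an adjusted p under 0.05 if its log2 fold change also exceeded 1 in size. The fit was tested on simulated counts with the same dispersion for every gene. The simulation had no outlying samples and no group difference in library scaling, so it does not bear on calls that depend on these. FPKM are per gene length, so levels of members were compared with each other.

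Named were the members, the 3 genes most like each, and called genes of pathway lists. Pathway genes not called were named after their values were seen, in HS versus NS, where 3 of a list had an unadjusted p under 0.05. Some genes of the lists are not reported here by name. Members and lists were chosen with earlier results of these data known. Alternatives were another pseudocount (0.1), no filter or a mean of at least 5 FPKM, quantile normalization, rescaling to reads on genes, only the groups compared, no trend, the replicate number as a block, adjusted p alone, and leaving out each replicate. Joining the receptor alpha genes, overlap of the groups after rescaling, and limma voom on recovered reads, with the library sizes held in the FPKM, were added after seeing the data.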

Additional observations from a re-analysis of the deposited data

How the results depend on the processing

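In HS versus NS, 2 to 3 members were called when single replicates were left out, with PDGFRB added without NS replicate 3 or HS replicate 2. Adjusted p alone gave 4 by adding PDGFC and PDGFRB, and each other alternative gave 2. The adjusted p of PDGFC was 0.0440 to 0.0971 without single replicates and 0.0559 with the replicate block (limma). That of PDGFRB was 0.0153 to 0.0601 without single replicates (limma). In 5-Fu injection versus HS the 1 call became 0 with only the groups compared, and 0 to 2 without single replicates. In drug-loaded MNs versus NS the 1 call became 0 with no filter, quantile normalization, rescaling to reads on genes, no trend or the replicate block, and 0 to 0 without single replicates. The other 3 comparisons had 0 called members in all alternatives. The cause of these losses was not tested. The planned voom fit with TMM factors was not run, and voom with the library sizes held in the FPKM stands in its place.

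Directions reversed only for small differences. Rescaling to reads on genes gave PDGFB 0.028 in drug-loaded MNs versus HS, PDGFC −0.051 in drug-loaded MNs versus NS and PDGFC −0.071 in 5-Fu injection versus NS. Leaving out single replicates gave PDGFB −0.30 to 0.18 in HS versus NS, −0.24 to 0.14 in drug-loaded MNs versus HS, −0.40 to 0.077 in drug-loaded MNs versus NS and −0.015 to 0.64 in 5-Fu injection versus NS. It gave PDGFA −0.048 to 0.25 in drug-loaded MNs versus HS, PDGFC −0.10 to 0.11 and PDGFRB −0.020 to 0.30 in drug-loaded MNs versus 5-Fu injection, and the 5′ receptor alpha gene −0.25 to 0.72 in 5-Fu injection versus NS.

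Rabbits differed between groups, so shared replicate numbers do not pair samples, and same-numbered samples correlated at −0.27 to 0.44 in their deviations. With the replicate block the counts were 2 in HS versus NS, 1 in 5-Fu injection versus HS and 0 in the other 4 comparisons, and the 5′ receptor alpha gene had an adjusted p of 0.0561 (limma) in 5-Fu injection versus HS. With 3 samples per group and 70 to 156 reads, PDGFA allowed the least precise count of reads.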

Other observations

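The ratio of the 5′ to the 3′ receptor alpha gene, in FPKM, was 0.394, 0.458 and 0.585 in NS, 0.795, 0.613 and 0.606 in HS, 0.683, 0.469 and 0.419 in drug-loaded MNs and 0.357, 0.438 and 0.339 in 5-Fu injection. HS lay wholly above the NS and 5-Fu injection samples, and overlapped drug-loaded MNs. No test was run on this ratio, which was looked at after the values were seen.

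After group means were subtracted, so that only the spread within groups was left, the genes most like each member over the 12 samples were mostly others. PDGFD was followed by MBTPS2 (r = 0.939), RUNX2 (0.923) and ZBED6 (0.921), and PDGFRB by ZFR (0.974), KIF5B (0.944) and SAR1A (0.941). PDGFC was followed by CKAP4 (0.958), MAGED1 (0.953) and NUAK1 (0.928). SVEP1, an extracellular matrix protein, was among the closest to PDGFRL both before (0.973) and after (0.973) subtraction, as were ABCB9 for PDGFA (0.962 and 0.960) and ST6GALNAC4 for PDGFB (0.970 and 0.974). These are descriptions over samples that share 4 group means, with no test.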
